A study of Polypterus senegalus with 8 samples.

Results

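The transcripts that stood highest at 14 days post-amputation (dpa) in the regenerating pectoral fin of the bichir, Polypterus senegalus, are described here. Reads were summed over the transcripts of each assembly component, a group of related transcripts from an assembly made without a genome, and divided by the library's total to give counts per 1e6 reads (CPM). Of 94050 components, 12067 reached 10 CPM at 14 dpa, and these were ranked by their lead, the log2 difference between the 14 dpa value and the highest of the 0, 3 and 7 dpa values after adding 1 CPM to each. The 100 members are the first 100 components of this ranking. They were chosen by their 14 dpa values, so their height at 14 dpa describes the selection and supports nothing further.

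The study followed amputated pectoral fins of fish bought from a commercial supplier, with no genotype, age or sex given in the labels. The mRNA groups were the uninjured fin (0 dpa) and the fin 3, 7 or 14 days after the cut, with 1 library per group. A further 4 small RNA libraries make up the rest of the 8 in the series. According to the study's methods each bichir library was a single replicate of pooled tissue. No difference therefore has a replicate check, the stage of a library and the pool it came from cannot be told apart, and every interval covers 95% of counting error only.

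Regeneration of a fin begins with wound closure by epidermis and proceeds through a blastema, a mass of proliferating cells from which skeleton, muscle, nerves and connective tissue are rebuilt. Matrix proteins such as fibrillins, hemicentins, tenascins and collagens form the scaffold of the growing fin, and metalloproteinases cut that scaffold as tissue is remodelled. Late stages of regrowth combine continued proliferation with differentiation, during which muscle and skeletal genes are expressed.

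The 4 mRNA libraries held between 38095865 and 43350285 reads, so depth was similar throughout. The 0 dpa library stood apart in composition: its 100 most abundant components took 47.9% of its reads, against 23.6% to 28.7% at the other stages. Values divided by library totals depend on this composition. A trimmed mean of log ratios, which sets the bulk of components equal between libraries, moved the median log2 change of all components from 0 to 14 dpa from 1.06 to 0.16, and values against 0 dpa are read relative to that shift.

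Together the members took 0.115%, 0.197% and 0.178% of the reads in the first 3 libraries and 1.52% of those at 14 dpa (Wilson interval 1.517% to 1.524%). The median member stood at 3.58, 3.25 and 3.18 CPM at 0, 3 and 7 dpa and at 31.9 CPM at 14 dpa. These medians were alike over the first 3 stages by library totals only, since with the trimmed mean the median change of the members from 0 dpa was -1.04 at 3 dpa and -0.80 at 7 dpa. Few members were undetected: 3 had 0 reads at 0 dpa, 1 had 0 reads at 7 dpa, and none had 0 reads at 3 dpa or 14 dpa. Every member had at least 385 reads at 14 dpa.

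The leads ran from 6.29 down to 1.42 with a median of 1.92, and 48 members led by more than 4-fold and 17 by more than 8-fold. Of the members, 28 were above 100 CPM at 14 dpa, 39 lay between 20 and 100 CPM, and 33 lay between 10 and 20 CPM. For 42 members all of the 3 earlier stages were under 5 CPM, whereas 10 exceeded 50 CPM at an earlier stage. Reads were concentrated, since the most abundant member took 22.0% of the members' reads at 14 dpa and the first 5 by reads took 50.2%. CPM is not divided by transcript length, so it compares a component between stages and not 1 component with another.

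**Figure D1:**
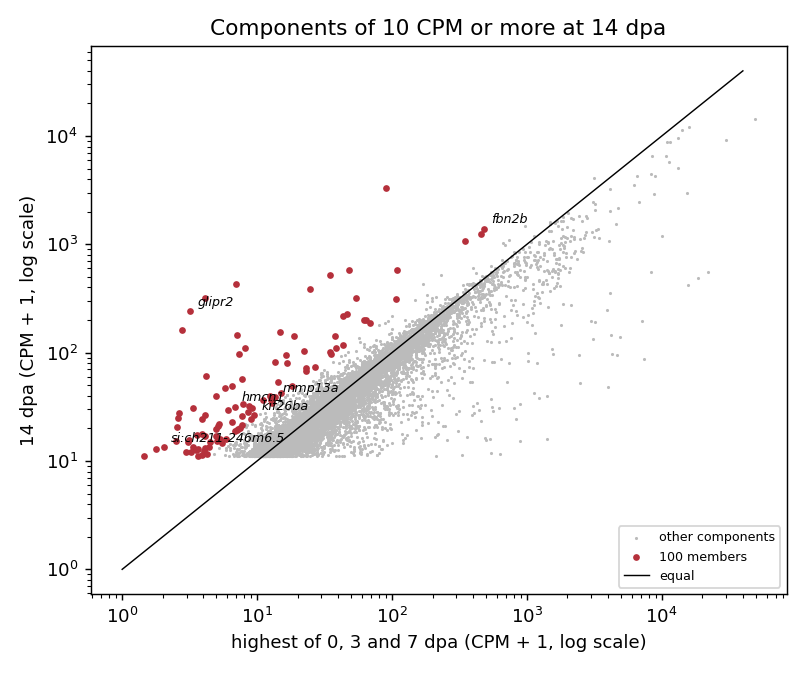
Each point is a component of 10 CPM or more at 14 dpa, with its highest value at 0, 3 or 7 dpa on the x axis and its 14 dpa value on the y axis (both CPM + 1, log scales). The 100 members (red) lie above the line of equal values by construction, with glipr2 at 242 CPM and fbn2b at 1398 CPM at 14 dpa.

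The ranking used the highest of the 3 earlier values, so the order of those stages is not independent of it. It favours components low at all 3 and ranks down those raised at 3 or 7 dpa, as most components were. The shares below therefore describe the selection in part, and how far they go beyond it was not tested. The next-highest stage was 0 dpa for 40 members, 3 dpa for 31 and 7 dpa for 29. The 4014 components of 10 CPM or more that were highest at 14 dpa were ordered otherwise, with 0 dpa next in 5.63%, 3 dpa next in 76.1% and 7 dpa next in 18.2%. The lowest stage was 0 dpa for 42 members, against 88.4% of those 4014 components. The split depended on scaling: with the trimmed mean 71 members had 0 dpa next, against 10.2% of the components highest at 14 dpa, while all 100 members still led at 14 dpa. A ranking made anew with the trimmed mean kept 67 of the 100 members.

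At 3 dpa, 28 members were over 1.5-fold higher than at 0 dpa, where 66.3% of the 28836 components with a mean of at least 1 CPM were. In the other direction 41 were over 1.5-fold lower, against 10.8% of all components. The same held at 7 dpa, when 34 were higher than at 0 dpa (63.4% of all components) and 40 were lower (9.3% of all components). The members' median log2 change was -0.05 at 3 dpa and 0.08 at 7 dpa, while the medians over all components were 1.04 and 0.85. With the trimmed mean, 14 of these members were higher and 60 lower at 3 dpa than at 0 dpa, against 36.9% and 27.14% of all components. Among the 100 members as listed, more were thus lower than higher under both scalings. The first 100 of a ranking made anew with the trimmed mean held 32 that were higher at 3 dpa, near the 36.9% of all components. How many of those were lower is not given.

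Between 3 and 7 dpa the members moved in both directions in about equal number. Of the 100, 22 were over 1.5-fold higher at 7 dpa than at 3 dpa (7.27% of all components) and 20 were lower (19.8% of all components), and the median change was -0.01, against -0.16 over all components.

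From each earlier stage to 14 dpa all 100 members were over 1.5-fold higher, as the selection requires. The shares of all components were 67.3% from 0 dpa, 7.48% from 3 dpa and 23.9% from 7 dpa, and nothing is read from these counts. The members' median log2 changes were 2.82, 3.03 and 2.89 from 0, 3 and 7 dpa.

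**Figure D2:**
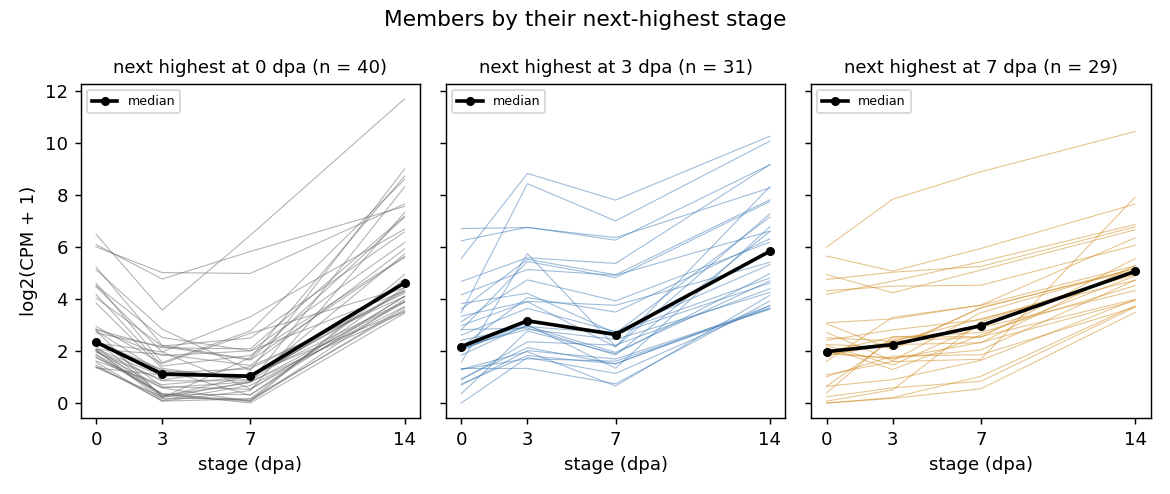
Each thin line is a member's log2(CPM + 1) at 0, 3, 7 and 14 dpa, in panels by its next-highest stage, and the black line is the panel's median. In the 40 members with 0 dpa next (left), the median fell from 4.08 CPM at 0 dpa to 1.17 and 1.05 CPM at 3 and 7 dpa before 14 dpa.

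The members with the largest leads were mostly of this first kind, since 8 of the first 10 had 0 dpa as their next-highest stage. comp27141_c0 led the ranking, with 3.09 CPM at 0 dpa, then 0.157 and 0.738 CPM at 3 and 7 dpa, and 319 CPM at 14 dpa. Only 6 of its reads came from the 3 dpa library and 12230 from the 14 dpa library. A transcript present in the uninjured fin was thus almost absent after injury and then took 103 times its original share. Its lead, with 1 CPM added to each value, was 6.29 (counting interval 6.09 to 6.49). comp59796_c0 followed the same course, with 5.93, 0.157 and 2.35 CPM at 0, 3 and 7 dpa and 425 CPM at 14 dpa. comp43164_c0 did so at a lower level, with 1.76, 0.0525 and 0.392 CPM and then 161 CPM. All 3 were recorded as single transcripts, and the study's tables used here pair none of them with a gene symbol.

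The most abundant member by reads belonged to this kind as well. comp59578_c0 had 89.1, 10.9 and 86.9 CPM at the 3 earlier stages and 3345 CPM at 14 dpa. Its 3 dpa value was the low point, and at 7 dpa it stood at the level of the uninjured fin, with log2 changes from 0 dpa of -2.92 at 3 dpa (interval -3.05 to -2.78) and -0.04 at 7 dpa (-0.10 to 0.03). With the trimmed mean the change at 7 dpa was -1.01, below the uninjured fin. At 14 dpa it was 37.5-fold above 0 dpa. The 3 members named before it were still below their 0 dpa values at 7 dpa under either scaling.

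In all, 32 members were over 1.5-fold lower at both 3 and 7 dpa than at 0 dpa and then stood above it at 14 dpa. This course was found in 1.57% of the 4014 components highest at 14 dpa. Their summed level was 327 CPM at 0 dpa, then 74.4 and 80.5 CPM at 3 and 7 dpa, and 2978 CPM at 14 dpa, when 9 of them exceeded 100 CPM. At 14 dpa they stood between 1.42 and 6.29 above 0 dpa on the log2 scale, and 16 of the 32 were more than 4-fold above it. None of the 32 is paired with a symbol. With the trimmed mean 50 of the 100 members were lower at both stages. That scaling also raised the share of all components lower than at 0 dpa at each stage. At 3 dpa this share went from 10.8% to 27.14%. The share of all components lower at both stages is not given under that scaling, so nothing is read from the larger count.

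Muscle genes moved in the same direction between the first 3 stages, and their values stand beside these members. Of 21 muscle components, 18 were over 1.5-fold lower at both 3 and 7 dpa than at 0 dpa, and 4 of those 18 exceeded their 0 dpa value at 14 dpa. Of all 28836 components with a mean of at least 1 CPM, 2341 were lower at both stages, and 168 of those exceeded 0 dpa at 14 dpa. The muscle genes have names here because they changed in common between 0 and 7 dpa, and all components carry no such filter. The count of 18 is therefore not independent of the naming, and nothing is read from its height. The summed level of the 21 was 12545, 1524 and 1196 CPM at the 3 earlier stages and 1521 CPM at 14 dpa. The eno3 and dmd components, given below and each also paired with another symbol, made up most of this sum at every stage. No muscle component was at 0 reads at 14 dpa, and 4 were at 7 dpa. Of the 21, 6 were highest at 14 dpa, or 2 with the trimmed mean. No member is paired with a muscle symbol, and the part of muscle in the members' course was not tested. The study's discussion describes bichir fins as lacking skeletal muscle, and the tissue that gave these reads was not tested.

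A second kind was higher at 3 dpa than at 7 dpa and highest at 14 dpa. This was also the commonest order among the 4014 components highest at 14 dpa, with 3 dpa next in 76.1%. With the trimmed mean 15 members had 3 dpa next. In the 31 members with 3 dpa next, the median values were 3.50, 7.98, 5.21 and 56.4 CPM at 0, 3, 7 and 14 dpa. Their median log2 change from 0 to 3 dpa was 1.08, close to the 1.04 over all components. 3 of the 5 members with most reads at 14 dpa were among them. comp54793_c0 had 10.1, 347, 128 and 1081 CPM, an early rise of 4.97 on the log2 scale followed by a 3.12-fold lead at 14 dpa over 3 dpa. comp53807_c0 had 46.3, 456, 223 and 1235 CPM, with the same order of stages. comp50790_c0 had 24.6, 47.2, 40.4 and 576 CPM, with a smaller early difference of 0.91 on the log2 scale between 0 and 3 dpa (interval 0.80 to 1.02). That difference was below the median of 1.04 over all components, so no early rise of its own is read from it.

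Another kind rose at every step. This held for 19 members and for 15.2% of the components highest at 14 dpa, so it was about as frequent here as among late components in general. The summed level of these 19 was 151, 359, 659 and 2293 CPM at 0, 3, 7 and 14 dpa. Of the 6 members paired with a symbol, 5 were of this kind, and the other, hmcn1, had 3 dpa as its next-highest stage. With the trimmed mean 10 members rose at every step (16.1% of the components highest at 14 dpa), fbn2b, mmp13a and si:ch211-246m6.5 among them but not glipr2 or kif26ba.

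Named members fell into matrix proteins, a matrix protease and genes of other kinds. Names are those of the study's tables used here, which list genes that changed in common between 0 and 7 dpa. A change by 7 dpa in a named member is therefore not independent of its having a name. The study also predicted zebrafish relatives of bichir transcripts more widely, so a member without a symbol here may still have one. Only 13.3% of the components of 10 CPM or more at 14 dpa have a symbol in the tables used, and 94 members have none in them.

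Of the matrix proteins, fbn2b encodes fibrillin 2b, a component of the microfibrils around which elastic tissue forms, and in zebrafish it is needed for an intact larval fin fold. Its component had 63.0 CPM at 0 dpa, then 229 and 478 CPM at 3 and 7 dpa, and 1398 CPM at 14 dpa, which is 2463, 8709, 20703 and 53662 reads. Each stage exceeded the one before, and the lead over 7 dpa was 1.55 (interval 1.52 to 1.57), or 2.93-fold.

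hmcn1 encodes hemicentin 1, a large matrix protein of basement membranes that in zebrafish is likewise needed for the fin fold. The member component had 0.281, 5.83, 2.72 and 30.6 CPM at 0, 3, 7 and 14 dpa, with a lead of 2.21 over 3 dpa (interval 2.027 to 2.395). A further 4 components carry the same symbol, and all of them were highest at 14 dpa. The most abundant of these, comp55077_c0, rose from 21.1 CPM through 53.5 and 98.6 to 217 CPM and was 1.13 above 7 dpa on the log2 scale, which left it outside the 100. The other 3 shared with the member a dip from 3 to 7 dpa.

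mmp13a encodes a collagenase that cuts fibrillar collagen. Its member component rose from 2.04 CPM at 0 dpa through 8.85 and 12.6 to 37.9 CPM at 14 dpa, a lead of 1.52 over 7 dpa (interval 1.38 to 1.65). The symbol is shared by 6 components, which did not move together: 3, the member included, were highest at 14 dpa, and 3 were highest at 7 dpa. The main one, comp59545_c0, had 16.9, 733, 1771 and 414 CPM and was lower at 14 dpa than at 7 dpa by 2.09 on the log2 scale (interval of the change -2.12 to -2.07). Summed over the 6, mmp13a reached 1863 CPM at 7 dpa and 485 CPM at 14 dpa, so the member speaks for a minor share of the reads under this name. Whether the 6 are pieces of 1 gene or related genes that share reads cannot be told from the tables.

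The second member of the ranking was glipr2, which encodes a Golgi-associated protein of the CAP superfamily. It had 1.12, 2.02 and 2.21 CPM at 0, 3 and 7 dpa and 242 CPM at 14 dpa, a CPM ratio of 109 to 7 dpa. Its lead, with 1 CPM added to each value, was 6.24 (interval 6.03 to 6.44). Nearly all of the change thus came after 7 dpa. Its 2 transcripts differed, as the first had 0 reads at 0 dpa and 3 dpa, 53 at 7 dpa and 6346 at 14 dpa, and the second had 44, 77, 43 and 2940 reads. The first carried 68.3% of the component's reads at 14 dpa, yet the study's tables pair only the second with the symbol.

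kif26ba encodes a kinesin-family protein and had 2.71, 4.15, 8.47 and 25.5 CPM at 0, 3, 7 and 14 dpa, with a lead of 1.48 over 7 dpa. All 7 components of this name were highest at 14 dpa, and the other 6 were low, between 0.547 and 5.32 CPM there. si:ch211-246m6.5, a clone-based zebrafish name without a described function, had 0, 6, 45 and 476 reads, or 0, 0.157, 1.04 and 12.4 CPM. All 6 components of this name were highest at 14 dpa, and their sum went from 0.0511 CPM at 0 dpa through 0.394 and 1.68 to 26.0 CPM. Taken over the 6 names, 18 of the 21 further components that share a symbol with a member were highest at 14 dpa and 3 at 7 dpa, where 38.4% of the 2548 components with any symbol were highest at 14 dpa. The count of 18 did not change under the other scalings run (trimmed mean, median of ratios and no depth scaling). Components of the same name may be pieces of the same transcripts as a member, which was chosen for its height at 14 dpa. The count is thus not independent of the selection, and nothing further is read from it.

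**Figure D3:**
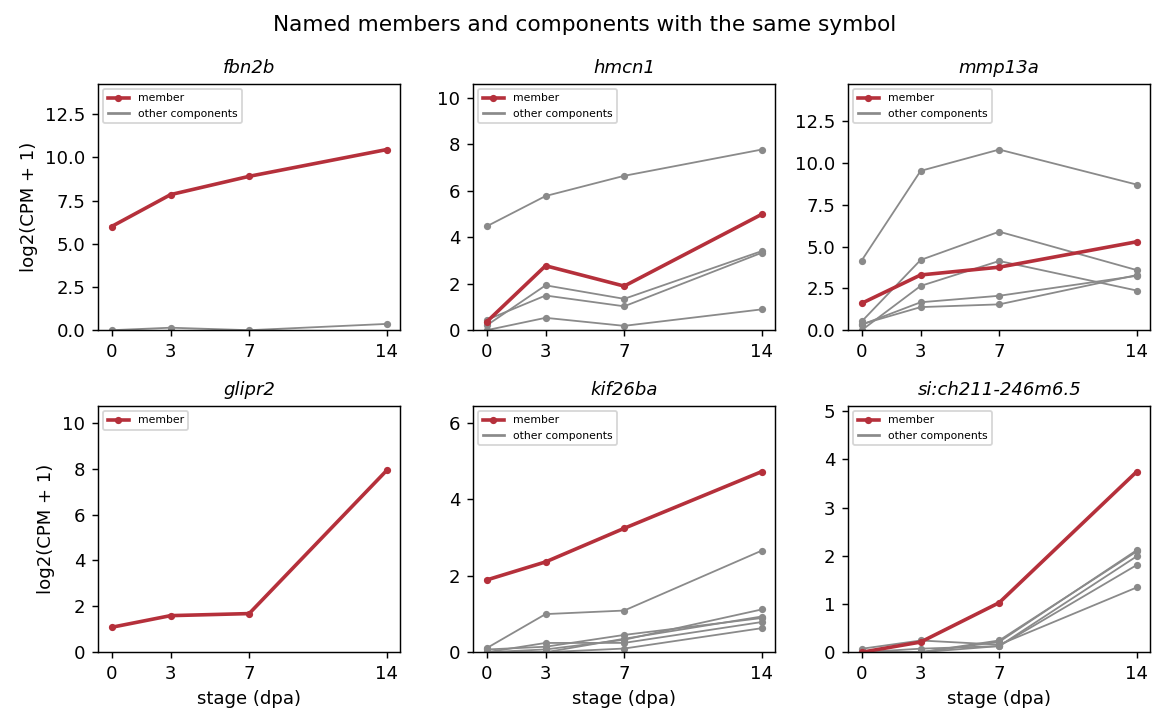
Each panel shows the components paired with one symbol, as log2(CPM + 1) at 0, 3, 7 and 14 dpa, with the member in red and the others in grey (axes differ between panels). The 6 mmp13a components split into 3 highest at 14 dpa and 3 highest at 7 dpa, while all components named hmcn1, kif26ba and si:ch211-246m6.5 were highest at 14 dpa.

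Most members were assembled as 1 transcript, which held for 68 of the 100, against 52.4% of the components of 10 CPM or more at 14 dpa and 42.1% of those highest at 14 dpa. This was not particular to 14 dpa. The first 100 components of 0, 3 and 7 dpa by the same rule held 65, 60 and 70 such components. In the 32 members with several transcripts the leading one carried a median of 74.3% of the 14 dpa reads, ranging from 17.8% to 100%. The same transcript led at the next-highest stage in 23 of the 32 and another in 9. comp54022_c0 was of the latter kind, as its leading transcript had 65.2% of the reads at 14 dpa (exact interval 61.8% to 68.5%) and 0 of 164 reads at 0 dpa (upper bound 2.2%). comp51712_c0 changed less, from 44.9% at 3 dpa to 87.2% at 14 dpa. These 2 were chosen after their values were seen, and RSEM estimates how reads are divided between similar transcripts, so shares within a component carry an error beyond counting.

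At the limit of the ranking, comp41513_c0 had 4.47, 0.551, 0.438 and 13.7 CPM and a lead of 1.423. comp50371_c0, the last inside, had 3.50, 6.14, 4.45 and 18.1 CPM and a lead of 1.422. Just outside lay comp8663_c0, with 3.14, 2.44, 7.20 and 20.9 CPM and a lead of 1.416, and comp26278_c0, with 9.48, 3.04, 1.41 and 26.4 CPM and a lead of 1.387. Their counting intervals overlapped (1.23 to 1.61 for the last inside and 1.24 to 1.59 for the first outside), so the limit separates no distinct group. In all 173 components led at 14 dpa by more than 2-fold.

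Ranked in the same way, the other stages gave different sets. At 0 dpa 876 components led by more than 2-fold, and the first 100 had a median lead of 5.18. At 3 dpa only 3 components did, and the largest lead was 1.02. At 7 dpa 155 did, with a largest lead of 6.31 and a median of 1.97 over the first 100, close to the 6.29 and 1.92 at 14 dpa. The nearness to 7 dpa depended on scaling: with the trimmed mean 73 components led at 14 dpa and 140 at 7 dpa, with median leads of 1.29 and 1.71. The 2 other stages kept their places under that scaling, with 6 such components at 3 dpa and 2560 at 0 dpa. The first 100 components took 12.5%, 1.33%, 1.11% and 1.52% of the reads of their own stage, in the order of the stages, while 8, 3, 13 and 6 of them have a symbol.

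**Figure D4:**
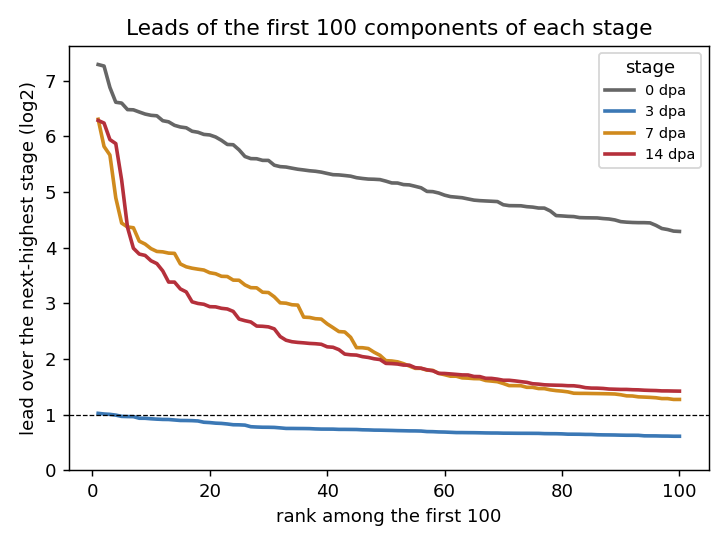
The lead of the first 100 components of each stage over their next-highest stage, on the log2 scale, by rank and by library totals (the dashed line marks 2-fold). The 14 dpa curve falls from 6.29 to 1.42 and the 7 dpa curve from 6.31 to 1.27, while the 3 dpa curve stays between 1.02 and 0.61.

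Gene lists drawn from the study's named genes are set beside the members, and only fbn2b, hmcn1 and mmp13a among their genes are members. The list counts include these, 2 in the matrix list and 1 each in the skeletal and protease lists. Such members are highest at 14 dpa by selection. The lists are given by the stage of their highest value and by the change from 7 to 14 dpa. Their names come from changes between 0 and 7 dpa, so both measures, which use the 7 dpa library, are not independent of the naming. They stand beside all 28836 components of at least 1 CPM on average, which were not filtered by name. Of those, 32.3% were highest at 14 dpa, and their median log2 change from 7 to 14 dpa was 0.18. Under the trimmed mean these became 18.44% and -0.04. For the 2072 of these components with a symbol, the values by library totals were 35.8% and 0.15.

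Among matrix genes, 20 of 33 components were highest at 14 dpa, counting the 2 members and further hmcn1 components. Of the 33, 17 were over 1.5-fold higher and 6 lower than at 7 dpa, with a median change of 0.61. With the trimmed mean 16 of the 33 were highest at 14 dpa and the median was 0.34. After fbn2b, the list's most abundant gene was col12a1b, a fibril-associated collagen, with 155, 733, 725 and 1107 CPM at 0, 3, 7 and 14 dpa. Matrix proteases and their inhibitors were divided, with 10 of 21 highest at 14 dpa (5 with the trimmed mean) and 11 at 7 dpa, and a median change of -0.03. mmp14, a membrane-bound protease, had 102, 543, 711 and 694 CPM, and mmp2, a gelatinase, had 313, 170, 361 and 431 CPM. In the skeletal list 6 of 19 components were highest at 14 dpa and 11 at 7 dpa (median change -0.18). It shares 9 components, all mmp13a or mmp13b, with the protease list, and these make up 6 of the 11. The most abundant were mmp13a as given above and the collagenase mmp13b, with 1.23, 335, 1013 and 223 CPM.

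Cell cycle genes were highest at 14 dpa in 36 of 39 components, but by small margins, as 12 were over 1.5-fold higher than at 7 dpa, none was lower and the median change was 0.46 (4 higher, 1 lower and 0.20 with the trimmed mean). top2b, a DNA topoisomerase, had 33.1, 146, 130 and 163 CPM in its main component, and mki67, a mark of dividing cells, had 17.3, 82.7, 63.8 and 119.3 CPM. No cell cycle gene of the list is a member. The trimmed mean left 27 of 39 highest at 14 dpa. Signals and patterning genes were highest at 14 dpa in 19 of 31 components, or 13 with the trimmed mean. Of the 31, 14 were over 1.5-fold higher and 6 lower than at 7 dpa, with a median change of 0.46, while the trimmed mean gave 10 higher, 9 lower and a median of 0.23. etv5a, a transcription factor downstream of FGF signals, had 27.0, 187, 137 and 145 CPM, and cx43, a gap junction protein that in zebrafish sets the length of fin ray segments, had 4.68, 29.2, 26.6 and 64.1 CPM.

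Of the lists, muscle genes had the largest median change from 7 to 14 dpa under every scaling run. Of 21 components, 18 were over 1.5-fold higher at 14 dpa than at 7 dpa, none was lower, and the median change was 2.16 (17 higher, 1 lower and 1.86 with the trimmed mean). Even so, 14 were highest at 0 dpa and the median change from 0 to 14 dpa was -1.74. eno3, the muscle enolase, had 8308, 595, 708 and 551 CPM in a component that is also paired with another enolase symbol, and was not part of the rise. dmd, which encodes dystrophin, had 221.9, 644, 300 and 515 CPM in its main component, which is also paired with another symbol. In the nerve sheath list 4 of 6 components were over 1.5-fold higher at 14 dpa than at 7 dpa (median 0.78), against 23.9% of all components. With the trimmed mean 3 of 6 were, and the median was 0.51. From 0 to 14 dpa the list's median change was 0.28, or -0.84 with the trimmed mean. By library totals 3 of the 6 were highest at 0 dpa, and 2 were over 1.5-fold lower at 14 dpa than at 0 dpa. The 2 genes with the highest 14 dpa CPM went the other way from 0 dpa. The neuregulin receptor erbb3 had 7.64, 48.6, 30.8 and 57.7 CPM, and the semaphorin receptor plxna4 had 16.2, 54.4, 31.995 and 51.5 CPM.

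For red blood cell and epidermal genes the standing against all components depended on scaling. The leukocyte share was below that of all components under every scaling run for the lists. By library totals 16.7% of leukocyte, 25% of red blood cell and 16.7% of epidermal components were highest at 14 dpa, against 32.3% of all components. With the trimmed mean these shares were 11.1%, 25% and 0%, against 18.44%. Of 18 leukocyte components, 3 were highest at 14 dpa (median change from 7 dpa -0.16). cd74a, of antigen presentation, had 1965, 1407, 2551 and 1627 CPM, and LSP1, a leukocyte actin-binding protein, had 123, 246, 365 and 185 CPM. Of 4 red blood cell components, 1 was highest at 14 dpa (median -0.27), with alas2, of haem synthesis, at 34.8, 365, 264 and 199 CPM and the iron exporter slc40a1 at 55.3, 97.0, 116 and 65.0 CPM. Of 12 epidermal components, 2 were highest at 14 dpa with a median change of 0.36 from 7 dpa. The trimmed mean gave 0 of 12 and 0.09, and no depth scaling gave 5 of 12 and 0.19. Without depth scaling 28.8% of all components were highest at 14 dpa. The epidermal genes with most reads were krt15, a keratin, at 1789, 2438, 1359 and 1828 CPM, and ppl, which encodes periplakin, at 334, 762, 504 and 759 CPM. In pooled tissue a larger share of cells of a type and more RNA per cell cannot be told apart in any of these values.

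**Figure D5:**
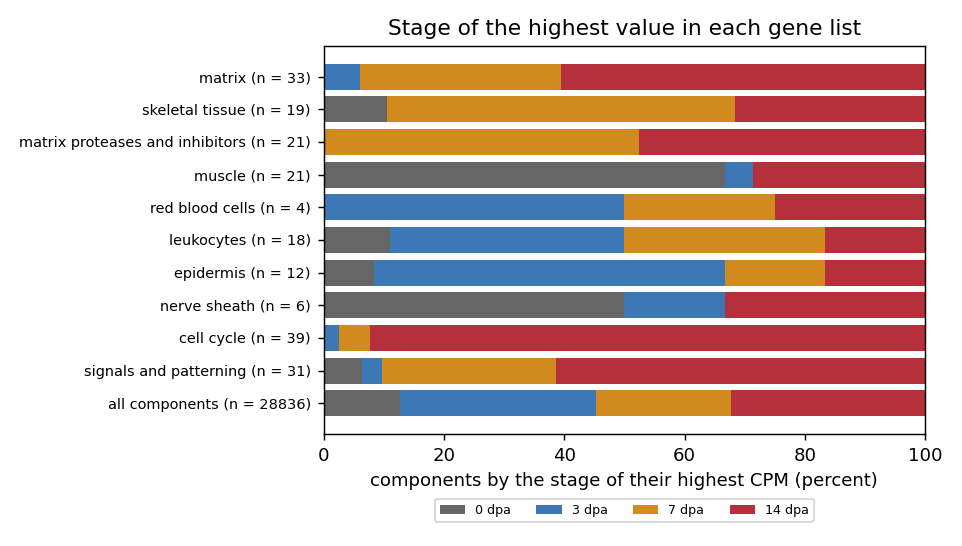
Share of the components of each gene list, in percent, by the stage of their highest CPM from library totals, beside all components (bottom bar). 36 of 39 cell cycle components and 20 of 33 matrix components were highest at 14 dpa, against 32.3% of all components, while 14 of 21 muscle components were highest at 0 dpa. The matrix list includes 2 members, which are highest at 14 dpa by selection.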

How the data were processed

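The mRNA libraries of bichir pectoral fin were analysed, 1 library per stage, and the small RNA libraries were not used here. Before deposit the authors used Trimmomatic for trimming, Trinity for assembly, RSEM for the number of reads per transcript and edgeR (versions not given in the sources used here). The authors deposited log2 values named log CPM. 2 raised to each value was a whole number (within 0.01%) for 100% of values and columns had unequal sums, so the values were read as log2 of read counts, and a listed 0 as 0 reads. 4760 repeated rows were dropped, leaving 127736 transcripts. Whether counting used strand is not given in the sources used here for the bichir.

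Counts were summed per component, divided by the column sum (38095865 to 43350285 reads) and compared as log2(CPM + 1), which understates changes of low components. The 6 components that the rule leaves out by name were not among the first 100. Changes were counted beyond 1.5-fold, over components with a mean of 1 CPM or more. With 1 library per group no test was possible. Intervals of 95% were exact (Clopper-Pearson) for changes and transcript shares and Wilson for shares of a library. Sequenced reads are not independent molecules, so they cover counting error only.

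The members, lists and comparisons were chosen with earlier results of these data known. Genes were named by rule: the first 5 members, the last 2 inside and first 2 outside the limit, the 5 members with most reads at 14 dpa, every member with a symbol, and the 2 genes of each list with the highest 14 dpa CPM. Outside the rule, comp54022_c0, comp51712_c0 and components that share a member's symbol were named after their values were seen. Symbols came from the study's tables of genes changed in common (2548 components), and 0 component identifiers matched the RefSeq gene table, so no genome position or sequence is given.

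Alternatives were 2 scalings (a trimmed mean of log ratios, trimming 30% of ratios and 5% of abundances, and median of ratios), totals without the 10 most abundant components, no depth scaling, pseudocounts of 0.1 and 5 CPM, minimums of 1 and 50 CPM, single transcripts, thinning, repeated rows kept, a listed 0 read as 1 read, and a 2-fold threshold. Ranking without the 0 dpa library was added after the data were seen. Calculations used Python 3.11.15, numpy 2.4.6, pandas 2.3.3 and scipy 1.17.1, with matplotlib 3.10.9 for figures, and were tested on simulated data.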

Additional observations from a re-analysis of the deposited data

Results flagged for a closer look

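Of the 17 members named, 6 were below 0 dpa at 3 or 7 dpa with their whole counting interval past 1.5-fold, and above it at 14 dpa. The opposite directions rest on 1 library per stage, the difference was not tested, and the 14 dpa side is fixed by the ranking. The ranking also ranks down components raised at 3 or 7 dpa, so low values there are not independent of it. On the log2 scale, comp27141_c0 changed from 0 dpa by -1.82 at 3 dpa and -1.24 at 7 dpa, then stood 6.29 above it. The changes of comp59796_c0 were -2.58 and -1.05, followed by 5.94 at 14 dpa. For comp43164_c0 they were -1.39 and -0.99, followed by 5.87. comp59578_c0 met this only at 3 dpa, with -2.92. comp54022_c0, named after its values were seen, had -1.09 and -2.08, followed by 2.07. comp41513_c0, next to last in the ranking, had -1.82 and -1.93, followed by 1.42. Over all 100 members 40 were lower in this sense at 3 or 7 dpa and 29 at both, against 9.85% and 6.67% of the 28836 components with a mean of 1 CPM or more.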

How the results depend on the processing

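The median lead and the median change from 0 to 14 dpa, whose sign the ranking fixes, stayed above 0 under every alternative. Other medians turned with the trimmed mean. The members' from 0 to 7 dpa went from 0.08 to -0.80, and all components' from 7 to 14 dpa from 0.18 to -0.04. From 0 to 14 dpa the epidermal list's went from 0.80 to -0.41 and the nerve sheath list's from 0.28 to -0.84. Except at the 2-fold threshold, each alternative was ranked anew, and the member values that follow are of its own first 100. Of the 100 members, 67 were selected again with the trimmed mean and 64 with median of ratios. A minimum of 1 CPM kept 61 and a minimum of 50 CPM kept 39. Single transcripts kept 65, and ranking against 3 and 7 dpa only kept 54. The median lead was 1.29 with the trimmed mean, 1.24 with median of ratios, 2.22 and 1.48 with pseudocounts of 0.1 and 5, 2.24 and 1.104 with minimums of 1 and 50 CPM, 2.57 for single transcripts and 3.25 without the 0 dpa library. Leads over 2-fold numbered 73, 70, 517, 58, 289 and 361 under the trimmed mean, median of ratios, minimums of 1 and 50 CPM, single transcripts and without 0 dpa. Within the first 100 of each ranking, those higher at 3 than at 0 dpa numbered 18 and 46 with minimums of 1 and 50 CPM. Those higher at 7 than at 0 dpa numbered 19 with a pseudocount of 5 and 18 at a 2-fold threshold, and those higher at 7 than at 3 dpa 11 with a minimum of 1 CPM and 13 at 2-fold. The median change from 0 to 14 dpa was 2.08 and 2.03 with the 2 scalings, 3.11 and 1.96 with the 2 pseudocounts, 2.43 with a minimum of 50 CPM and 3.42 for single transcripts. The cause was not tested. Thinning, dropping abundant components, no depth scaling, repeated rows and the reading of 0 moved no count by over 1.5-fold. They also moved no median outside the members' median counting interval. No paired analysis was possible because each group held 1 library. Of the 100 members as listed, 72 led by over 2-fold with the trimmed mean and 68 with median of ratios. Animal variation is not measured.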
